A study of Saccharomyces pastorianus with 12 samples.

Results

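The cell wall mannoprotein genes TIP1, TIR1, TIR2, TIR3, TIR4, CWP1, CWP2, SED1, SRL1 and SPI1 were followed through a brewery propagation. A probe set was taken when the array's platform annotation named 1 of these genes. All 10 genes had a probe set, 1 each and none with an ending that marks shared probes, among the 5635 Saccharomyces cerevisiae genes on the array. All 10 passed the filter on dim genes, as did 5507 of the 5635. The members were selected on gene name, with no threshold on signal, but the names were put together when earlier log2 changes between these times were known. Calls on the members therefore describe how a difference compares with the spread between arrays, and they are not independent support for a change of wall genes.

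Strain CB11 of Saccharomyces pastorianus, the lager yeast, was studied, a hybrid of S. cerevisiae with a second Saccharomyces species. Cells at 0, 4, 8 and 30 h after inoculation were taken from 1 vessel of 140 hl, seeded from an aerobic culture of 8 hl. Every group shared the wort (80% malt, 20% maltose adjunct, 17° Plato, zinc at 0.5 mg per l), a temperature of 20 °C and oxygen supplied to hold 7 to 8 mg per l dissolved. Each time had 3 samples, A, B and C, with 1 array each, and no label states that they came from separate cultures, so the spread between them may be technical. The probes were designed on S. cerevisiae, so a signal sums whatever RNA of either parental genome bound to them.

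Mannoproteins form the outer layer of the yeast wall. Most of those described here are made with a glycosylphosphatidylinositol (GPI) anchor, carry many mannose chains on serine and threonine, and are moved from the plasma membrane to the wall glucan. TIP1 and the TIR genes are known in S. cerevisiae for induction by cold shock or by lack of oxygen, where TIR genes replace CWP genes as wall components. CWP1 and CWP2 encode abundant wall proteins of aerobic cells, SED1 and SPI1 encode wall proteins that accumulate as growth stops or under stress, and SRL1 encodes a wall mannoprotein linked to wall stability.

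The deposited signals did not share a scale, and all levels below are log2 signals after quantile normalisation, which gives each array the same distribution over the 5507 tested genes. A level is therefore relative to the other genes of its array and is compared only between times for the same probe set. The median deposited signal of tested genes was 133.5 to 420.7 (0h), 96.2 to 101.9 (4h), 31.4 to 54.0 (8h) and 54.3 to 75.8 (30h). The mean over all probe sets with the extremes left out was 100.1 on every 4h array. It was 134.1 to 376.9 (0h), 22.6 to 38.1 (8h) and 38.5 to 51.1 (30h). Deposited and unnormalised differences between 4h and another time may therefore hold a difference in scaling, which was not tested. Background was set on each array by the 95th percentile of probe sets for Schizosaccharomyces pombe, a yeast the culture should not hold, and 87.9% to 98.4% of tested genes exceeded it. Over genes, log2 signals had an SD of 1.21 to 1.32 on the late arrays (8h and 30h) and 1.92 to 2.02 on the early ones. Array 0h A stood apart: its median 3′ to 5′ signal ratio over 8 control genes, which is higher where labelled transcripts are shorter, was 35.5. The ratio was also raised on 0h C, at 6.96, against 1.88 on 0h B and 1.30 to 2.02 on the arrays of later times. Changes from 0h without 0h A still rest on 0h C. Among the 0h arrays, A was the lowest for 7 of the 10 members and the highest for 2, so most changes of the members from 0h are also given without it. Without normalisation the median gene itself shifted by -1.17 at 4h, -2.48 at 8h and -1.86 at 30h relative to 0h, and unnormalised changes contain that shift.

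**Figure D1:**
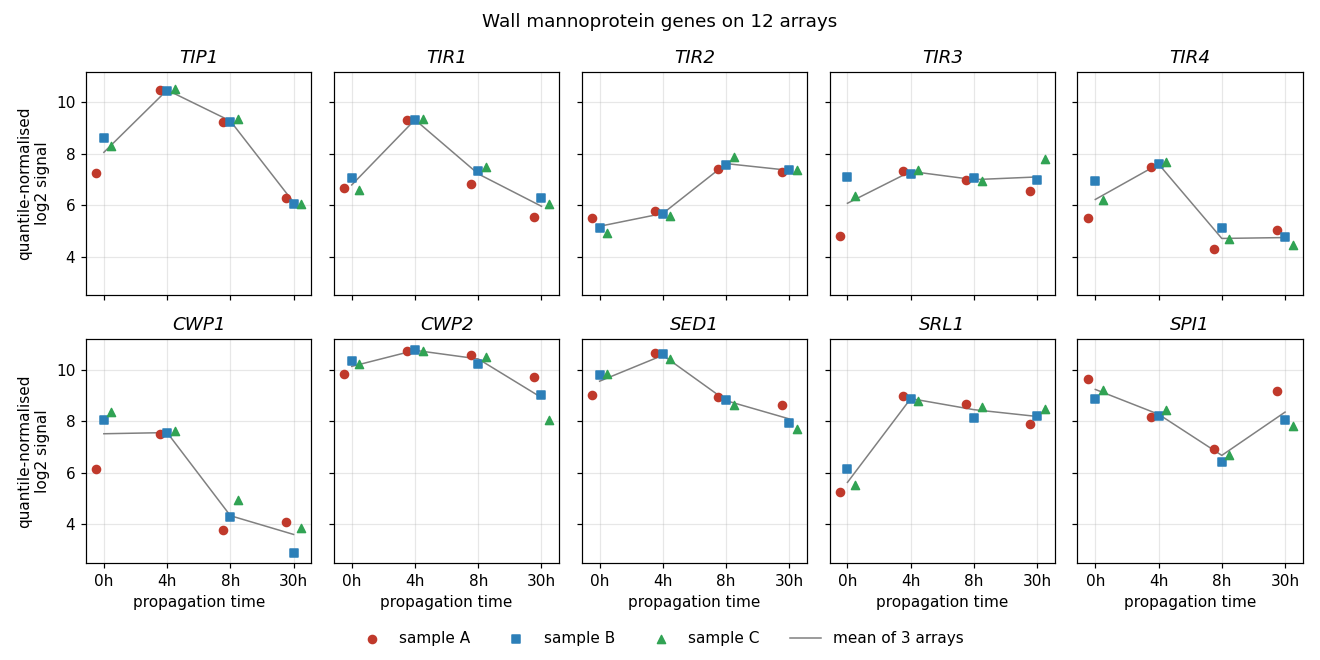
Quantile-normalised log2 signal (y axis) of each wall mannoprotein gene at the 4 propagation times (x axis), with 1 point per array marked by sample letter and a grey line through the means of 3 arrays. TIP1 and TIR1 peak at 4h, TIR2 and SRL1 stay high at 8h and 30h, CWP1 drops between 4h and 8h, and SPI1 has its lowest points at 8h.

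Over the 4 times, 9 of the 10 genes passed the limma F test at an adjusted p under 0.05, a share to be read against 78.6% of all tested genes. TIR3 was the exception (adjusted p = 0.0886). The mannoprotein genes did not share 1 course. TIP1, TIR1 and SRL1 had the largest rises in the first 4 h, CWP1 and TIR4 the largest falls between 4 and 8 h, TIP1 the largest fall after 8 h, and TIR2 and SRL1 were the members called higher at 30h than at 0h. In a culture, fewer cells expressing a gene and less of its RNA per cell cannot be told apart.

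TIP1, a cold-inducible wall mannoprotein gene, had levels of 7.23, 8.61 and 8.31 on the 0h arrays, 10.46, 10.45 and 10.50 on the 4h arrays, 9.24, 9.23 and 9.34 on the 8h arrays, and 6.26, 6.03 and 6.03 on the 30h arrays. No 2 times overlapped, and the order was 4h, 8h, 0h, 30h. It rose by 2.42 ± 0.29 (limma SE, n = 3 arrays per time) on the log2 scale at 4h against 0h (adjusted p = 8.16e-05, limma), or by 1.91 without 0h A. It fell by 1.20 ± 0.29 at 8h against 4h (adjusted p = 0.00245) and by 3.16 ± 0.29 at 30h against 8h (adjusted p = 3.07e-05). That last change ranked 2 from the lowest among 5507 genes. With each array centred on its median in place of quantile normalisation, the 8h fall was larger, at -2.69, and the 30h fall was -2.40 and still called (adjusted p = 0.00837). Without any normalisation the 30h change was -1.84 and not called (adjusted p = 0.301; 1.47e-07 to 0.301 over 21 alternatives).

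TIR1, another cold- and anaerobically induced member, had levels of 6.68, 7.07 and 6.60 on the 0h arrays, 9.30, 9.29 and 9.35 on the 4h arrays, 6.83, 7.34 and 7.47 on the 8h arrays, and 5.56, 6.26 and 6.05 on the 30h arrays. The 4h arrays lay above all others, the 0h and 8h arrays overlapped, and the 30h arrays lay below all others. TIR1 rose by 2.53 ± 0.25 at 4h against 0h (adjusted p = 2.62e-05), or by 2.40 without 0h A, and fell by 2.10 ± 0.25 at 8h against 4h (adjusted p = 8.15e-06). It fell by 1.26 ± 0.25 at 30h against 8h (adjusted p = 0.0119), and this call ended with median centring and without 30h A (adjusted p = 0.0755 and 0.0502; 0.00396 to 0.592 over 21 alternatives). At 8h against 0h the change was 0.43 ± 0.25 and was not called (adjusted p = 0.157), and it was 0.37 without 0h A.

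TIR4, needed for anaerobic growth of S. cerevisiae, had levels of 5.52, 6.94 and 6.20 on the 0h arrays, 7.49, 7.60 and 7.69 on the 4h arrays, 4.32, 5.12 and 4.68 on the 8h arrays, and 5.03, 4.76 and 4.44 on the 30h arrays. The 4h arrays were the highest, and the 8h and 30h arrays overlapped each other at the low end. The gene rose by 1.37 ± 0.34 at 4h against 0h (adjusted p = 0.0117) and was still called without 0h A (adjusted p = 0.0246). It fell by 2.89 ± 0.34 at 8h against 4h (adjusted p = 7.11e-06). The 4h call ended without normalisation (0.46, adjusted p = 0.495; 0.00137 to 0.495 over 21 alternatives). At 8h, 2 of 3 arrays were above background, so the size of the fall to 8h is uncertain. Its change at 30h against 8h was 0.04 ± 0.34.

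TIR3, also needed for anaerobic growth, had levels of 4.79, 7.08 and 6.34 on the 0h arrays, 7.34, 7.22 and 7.36 on the 4h arrays, 6.98, 7.07 and 6.93 on the 8h arrays, and 6.54, 6.96 and 7.79 on the 30h arrays. The 0h arrays had the widest spread, with 0h A the lowest of all 12 arrays, and the 8h arrays overlapped those of 0h and 30h. The change at 4h against 0h was 1.24 ± 0.45 (adjusted p = 0.0636), and it was 0.59 without 0h A. It was called with median centring and without 0h B, at 1.43 and 1.71 (adjusted p = 0.0393 and 0.0106; 0.0106 to 0.776 over 21 alternatives). Later changes were not called, with -0.32 ± 0.45 from 4 to 8 h and 0.10 ± 0.45 from 8 to 30 h.

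TIR2, a cold-inducible homologue of TIR1, rose between 4 and 8 h, where TIR1 and TIR4 fell. Its levels were 5.51, 5.12 and 4.91 on the 0h arrays, 5.79, 5.65 and 5.59 on the 4h arrays, 7.42, 7.56 and 7.86 on the 8h arrays, and 7.31, 7.38 and 7.37 on the 30h arrays. All late arrays lay above all early ones. The change at 4h against 0h was 0.50 ± 0.23 and not called (adjusted p = 0.135), and without normalisation it was -0.59, where the median gene was at -1.17. TIR2 rose by 1.94 ± 0.23 at 8h against 4h (adjusted p = 7.33e-06), or by 1.85 with median centring, and was at -0.26 ± 0.23 at 30h against 8h. On the deposited scale its signal spanned 66.1 to 94.0 on the 8h arrays and 48.0 to 53.6 on the 4h arrays, and the rise of 0.72 there was not called (adjusted p = 0.147; 8.74e-08 to 0.147 over 21 alternatives). Over the S. pombe background its signal was 5.54 to 6.76 times on the 8h arrays and 8.63 to 11.7 times on the 4h arrays, so the gene rose in rank among genes but not over background. The part of the narrower late signal range in this rise was not tested.

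CWP1, a main wall protein gene of aerobic cells, had levels of 6.14, 8.04 and 8.37 on the 0h arrays, 7.52, 7.56 and 7.60 on the 4h arrays, 3.77, 4.28 and 4.94 on the 8h arrays, and 4.08, 2.89 and 3.84 on the 30h arrays. Early and late arrays did not overlap. CWP1 fell by 3.23 ± 0.51 at 8h against 4h (adjusted p = 7.91e-05), and its deposited signal spanned 13.4 to 16.9 on the 8h arrays and 230.3 to 263.7 on the 4h arrays. At both 8h and 30h it exceeded the background on 2 of 3 arrays per time, at 0.84 to 1.31 times the threshold over the 6 arrays, so the fall may be larger than measured. The change at 4h against 0h was 0.04 ± 0.51 with all arrays (adjusted p = 0.960) and -0.63 without 0h A (adjusted p = 0.237; 0.0905 to 0.986 over 21 alternatives), so its direction in the first 4 h depended on that array. It was also below 0 without normalisation, with a pseudocount of 100 and with array weights, at -1.11, -0.04 and -0.52. After 8 h the change was -0.73 ± 0.51 and not called (adjusted p = 0.483).

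CWP2, whose protein is a major wall component needed for acid resistance, had levels of 9.83, 10.35 and 10.22 on the 0h arrays, 10.74, 10.78 and 10.74 on the 4h arrays, 10.56, 10.22 and 10.49 on the 8h arrays, and 9.70, 9.02 and 8.04 on the 30h arrays. The 30h arrays lay below all others and spread widely. The change at 4h against 0h was 0.62 ± 0.33 and not called (adjusted p = 0.183), or 0.47 without 0h A, and without normalisation it was -0.71, also above the median gene. CWP2 fell by 1.50 ± 0.33 at 30h against 8h (adjusted p = 0.0189). That call ended with median centring and without 8h A, 8h C or 30h B (adjusted p = 0.0894, 0.0774, 0.0622 and 0.0572; 0.00274 to 0.391 over 21 alternatives). Between 4 and 8 h it was at -0.33 ± 0.33 and not called with quantile normalisation, but with median centring it was called at -1.75 (adjusted p = 0.000468; 3.11e-06 to 0.632 over 21 alternatives).

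SED1, encoding a wall protein of stationary phase cells, had levels of 9.02, 9.80 and 9.84 on the 0h arrays, 10.67, 10.60 and 10.42 on the 4h arrays, 8.94, 8.81 and 8.65 on the 8h arrays, and 8.63, 7.94 and 7.70 on the 30h arrays. The 4 times did not overlap, in the order 4h, 0h, 8h, 30h. The gene rose by 1.01 ± 0.28 at 4h against 0h (adjusted p = 0.0194), or by 0.71 without 0h A, and stood at -0.13 without normalisation, above the median gene at -1.17. That call ended when the fit held these 2 times and no others, and without 4h A or 4h B (adjusted p = 0.0521, 0.0691 and 0.0638; 0.000722 to 0.834 over 21 alternatives). SED1 fell by 1.76 ± 0.28 at 8h against 4h (adjusted p = 8.66e-05), and by 3.08 with median centring. The later change, 30h against 8h, was -0.71 ± 0.28 and not called (adjusted p = 0.199).

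SPI1, induced in S. cerevisiae as growth stops and by weak acids, was the member that rose after 8 h. Its levels were 9.64, 8.85 and 9.22 on the 0h arrays, 8.16, 8.20 and 8.45 on the 4h arrays, 6.91, 6.42 and 6.70 on the 8h arrays, and 9.19, 8.07 and 7.81 on the 30h arrays. The 8h arrays lay below all others, and the 30h arrays overlapped those of 0h and of 4h. SPI1 rose by 1.68 ± 0.33 at 30h against 8h (adjusted p = 0.00980), a change that ranked 22 from the highest of 5507. With median centring it was 1.30 and not called (adjusted p = 0.125; 0.00291 to 0.145 over 21 alternatives). It fell by 1.60 ± 0.33 at 8h against 4h (adjusted p = 0.000737). Its fall of 0.96 ± 0.33 at 4h against 0h (adjusted p = 0.0477) was not called in 9 of the 12 fits that left out 1 array, among them that without 0h A (-0.73, adjusted p = 0.109). The 9 included every fit without a 4h or an 8h array and those without 0h C and 30h B (adjusted p up to 0.141).

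SRL1 showed the largest rise of the members at 4h against 0h. Its levels were 5.23, 6.13 and 5.52 on the 0h arrays, 8.99, 8.86 and 8.79 on the 4h arrays, 8.65, 8.14 and 8.56 on the 8h arrays, and 7.89, 8.21 and 8.46 on the 30h arrays. The 0h arrays lay far below the other 9, and the 8h and 30h arrays overlapped. The difference at 4h against 0h was 3.25 ± 0.26, or 2.99 without 0h A, and ranked 6 from the highest of 5507. It was among the results known when the genes were listed and is given as a description. Later changes of SRL1 were -0.43 ± 0.26 (8h against 4h) and -0.26 ± 0.26 (30h against 8h), neither called. Median centring gave -1.58 for the first of these, which was called (adjusted p = 0.000163; 7.38e-05 to 0.430 over 21 alternatives), as it was with these 2 times fitted alone (adjusted p = 0.0480).

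**Figure D2:**
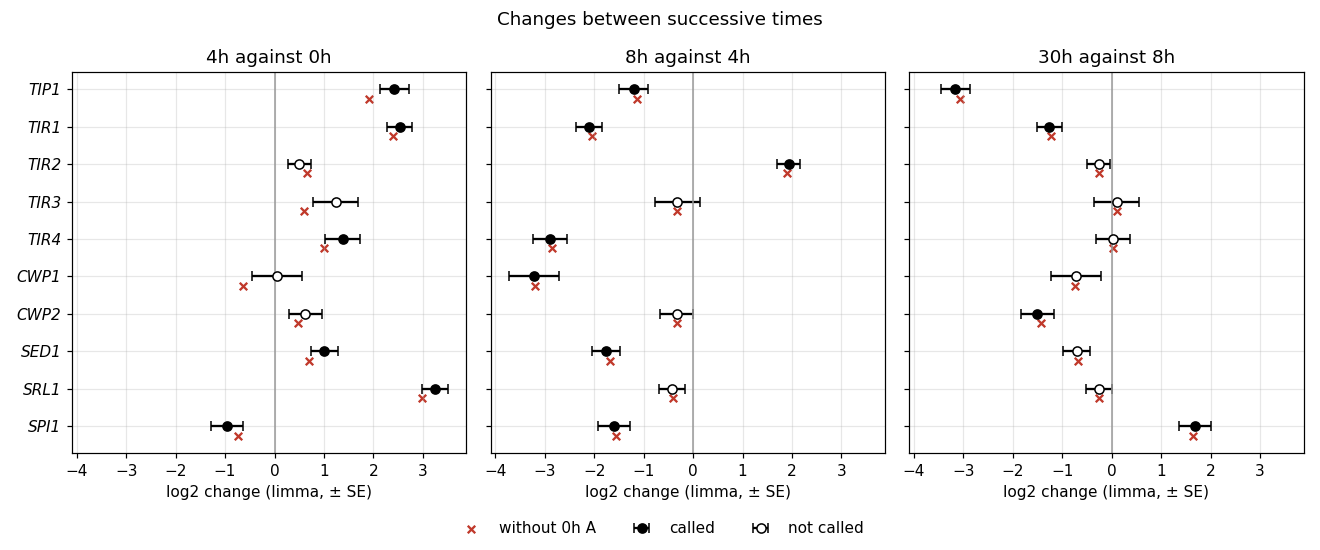
Log2 change (x axis) of each member (rows) between successive times, as circles with the limma SE; filled circles passed an adjusted p under 0.05 over 5507 genes, and red crosses give the change without array 0h A. TIP1, TIR1 and SRL1 lie furthest right at 4h against 0h, TIR2 is the filled circle right of 0 at 8h against 4h, and TIP1 at -3.16 and SPI1 at 1.68 are the extremes at 30h against 8h.

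In the first 4 h, 5 members were called higher (TIP1, TIR1, TIR4, SED1 and SRL1) and SPI1 lower, against 11.7% of all tested genes called higher and 11.7% lower. The change of SRL1 was known when the genes were listed. The member counts and medians of this comparison include it, so they are a description and no support for a change of the group. The median change of the members was 1.12, against 0.02 over all tested genes, and 0.68 and 0.06 without 0h A. The arrays of the 2 times did not overlap for 8 members upward and 1 downward, as for 27.7% and 25.1% of all genes. Without 0h A, TIR2 was called higher as well (0.66, adjusted p = 0.0271) and SPI1 was not called. The fit called 646 genes higher and 647 lower; without normalisation, where the median gene shifted by -1.17, it called 46 and 2630, with 3 members higher and 1 lower. Fits without 4h A, 4h B and 4h C called 709, 673 and 740 genes, fewer than with all arrays.

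From 4 to 8 h, 6 members were called lower (TIP1, TIR1, TIR4, CWP1, SED1 and SPI1) and TIR2 higher. Of all tested genes 33.9% were called lower and 30.8% higher. The members' median was -1.40, against -0.12 over all tested genes. Their arrays did not overlap in 9 cases downward and 1 upward, against 42.1% and 37.2% of all genes. The drop in array brightness and range falls between these 2 times and cannot be told apart from them. Spearman's rho of the deposited signals over tested genes was 0.28 to 0.35 between 4h and 8h arrays. It was 0.65 to 0.82 between 0h and 4h arrays and 0.85 to 0.91 between 8h and 30h arrays. The order of genes thus differed most at the 4h to 8h step. Normalisation keeps that order within an array, and the reason for the difference was not tested. On the 4h arrays the 6 members called lower lay above the array's median signal, from 2.35 times it (TIR4) to 31.7 times (SED1). TIR3, CWP2 and SRL1 also lay above it, and TIR2 lay below, at 0.47 to 0.56 times. The shares and median over all tested genes were not matched for level. Without normalisation the median gene shifted by -1.28, with 610 genes higher and 2843 lower in place of 1696 and 1866. There, 9 members were lower and 0 higher. With median centring, where 1961 of all tested genes were lower and 1742 higher, 8 members were lower, SRL1 and CWP2 in addition.

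From 8 to 30 h, when the arrays were closer in brightness and range than the early and late arrays were, TIP1, TIR1 and CWP2 were called lower and SPI1 higher. The share called over all tested genes was 2.83% lower and 1.02% higher. The members' median was -0.49, against 0.02 over all tested genes, and their arrays did not overlap in 5 cases downward and 1 upward, against 11.4% and 11.6% of all genes. The fit called 56 genes higher and 156 lower. It called 6 and 43 with median centring and 107 and 123 with a pseudocount of 100. Without 0h A it called 261 and 321. Without normalisation the median gene shifted by 0.58 and 3 genes were called higher and 2 lower. Under median centring TIP1 was the 1 member that kept its call, and without normalisation no member was called.

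At 30h against 0h, which shares its arrays with the comparisons above, TIR2 and SRL1 were called higher and 7 members lower. The share over all tested genes was 31.2% higher and 33.3% lower. Arrays did not overlap for 2 members upward and 6 downward, as for 31.2% and 33% of all genes. CWP1 had the largest difference, at -3.91 ± 0.51 (adjusted p = 1.42e-05), and TIR2 and SRL1 stood at 2.17 ± 0.23 and 2.56 ± 0.26. The calls of TIR2 and SRL1 ended without normalisation (0.52 each, adjusted p = 0.281 and 0.357). TIP1 stood at -1.94 ± 0.29, SED1 at -1.46 ± 0.28, TIR4 at -1.48 ± 0.34, CWP2 at -1.21 ± 0.33, SPI1 at -0.88 ± 0.33 and TIR1 at -0.83 ± 0.25. The call of SPI1 ended without 0h A (-0.66, adjusted p = 0.0836) and without 0h C, 30h B or 30h C (adjusted p up to 0.139), and that of TIR1 without 30h A (adjusted p = 0.0512). TIR3 was not called (1.02 ± 0.45, adjusted p = 0.0626), it was called without 0h B and without 30h A (1.50 and 1.33, adjusted p = 0.00636 and 0.0413), and without 0h A it was 0.37 (adjusted p = 0.296). Without 0h A, CWP1 stood at -4.56, TIP1 at -2.31, TIR4 at -1.81, SED1 at -1.66, CWP2 at -1.29, TIR1 at -0.87, TIR2 at 2.30 and SRL1 at 2.32. At 8h against 0h, 3 members were called higher (TIP1, TIR2 and SRL1) and 4 lower (TIR4, CWP1, SED1 and SPI1), against 29.7% and 32.9% of all genes. Arrays did not overlap for 3 members upward and 4 downward, as for 28.9% and 31.8% of all genes. The call of SED1 (-0.76 ± 0.28, adjusted p = 0.0293) ended without 0h B, 0h C, 8h B or 8h C (adjusted p up to 0.111). The TIP1 difference there, 1.22 ± 0.29, was 0.77 without 0h A (adjusted p = 0.00125) and was not called with median centring (0.21, adjusted p = 0.614). Without normalisation it stood at -2.12, where the median gene was at -2.48. The other 6 calls at 8h against 0h held without 0h A, with CWP1 at -3.82, SPI1 at -2.30, TIR4 at -1.85, SED1 at -0.97, TIR2 at 2.56 and SRL1 at 2.58.

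**Figure D3:**
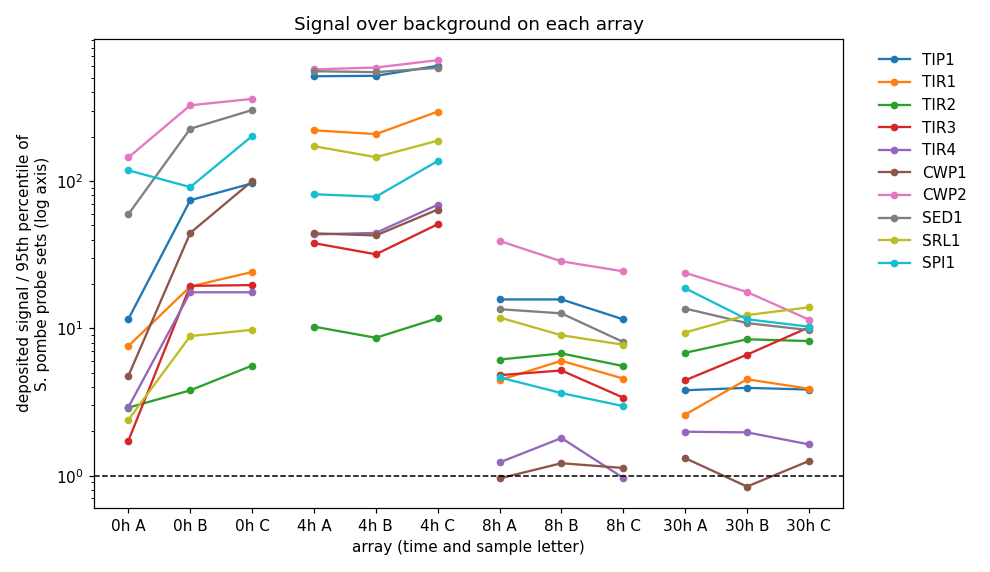
Deposited signal of each member divided by the 95th percentile of S. pombe probe sets on the same array (y axis, log scale) for the 12 arrays (x axis), with lines joining the arrays of 1 time and a dashed line at the background. All members were above it at 0h and 4h, while CWP1 and TIR4 lay at 0.84 to 1.99 times the threshold at 8h and 30h.

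The distance to background also set what could be read late. On the 8h arrays the members' signals were 0.96 to 39.2 times the background, and on the 4h arrays 8.63 to 661 times. All 10 members were above background on every array at 0h and at 4h, 8 at 8h and 9 at 30h. On 0h A the lowest was TIR3, at 1.73 times, where 0h B and 0h C had 19.4 and 19.7 times.

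For each member the deposited log2 signal was also set against the mean of the other 9 members on the same array, and the change of that difference was taken between times. Such a difference is free of a scaling factor per array but not of the array's range, which was narrower on the late arrays. The 10 values of a comparison sum to 0. The measure was taken for members only, so no share of all tested genes stands beside the overlaps below. On normalised signals that share without overlap was 27.7% upward and 25.1% downward at 4h against 0h. It was 37.2% and 42.1% at 8h against 4h, and 11.6% and 11.4% at 30h against 8h. At 4h against 0h SRL1 moved by 2.93 relative to the other members, TIR1 by 1.99 and TIP1 by 1.62, and SPI1 by -2.91, CWP1 by -1.49, CWP2 by -1.05, TIR2 by -0.92 and SED1 by -0.41, each with arrays that did not overlap. SED1, called higher after quantile normalisation, was thus lower relative to the other members. TIR4, also called higher, moved by 0.24 with arrays that overlapped, as did those of TIR3. For SED1, TIR4 and TIR3 the mean of the other 9 members includes SRL1, whose rise was known when the genes were listed. The part of SRL1 in these values was not tested. At 8h against 4h, where the range changed as well, TIR2 stood 0.14 above the other members on the 8h arrays and at -3.99 on the 4h arrays. TIR3 moved by 1.41, SED1 by -1.36, TIR1 by -1.28, CWP1 by -1.17, TIR4 by -0.97 and TIP1 by -0.92 without overlap, and the part of the range in these values was not tested. From 8 to 30 h SPI1 moved by 1.97, TIP1 by -2.14 and CWP2 by -0.98 without overlap, while the other 7 overlapped, at -0.58 to 0.62. SED1 and SPI1, both known from stationary phase, differed there, SED1 moving by -0.03.

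Pearson's r between members over the 12 normalised arrays, which share time and array brightness and are not independent, is given as a description. It was 0.93 for TIR4 with SED1, 0.89 for TIP1 with TIR1, and 0.88 for TIP1 with CWP2, CWP1 with SED1 and TIR4 with CWP1. TIR2 ran opposite to CWP1, at -0.92, and to TIR4, at -0.80. SRL1 was closest to TIR3, at 0.75, or 0.59 without 0h A. The 2 genes outside the group most like each member were FAS1 and ADH1 for TIP1, HTB2 and SCO1 for TIR1, THI72 and INP1 for TIR2, and YLR125W and PUB1 for TIR3. They were YKL151C and BMH1 for TIR4, YPT1 and ATP14 for CWP1, YDR524C-B and PDC1 for CWP2, and EXG2 and RSM10 for SED1. For SRL1 they were RTN2 and POX1, and for SPI1 they were SPG4 and CIT2. These r values were 0.918 to 0.991, and that of PUB1 with TIR3 was 0.62 without 0h A.

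Among 12 tested genes of other wall mannoproteins, 2 rose (16.7%) and 1 fell (8.33%) at 4h against 0h, where 11.7% of all tested genes rose and 11.7% fell (median 0.65, against 0.02 over all tested genes). CIS3 and PIR3, for wall proteins with internal repeats, rose by 1.17 ± 0.24 and 1.41 ± 0.44 (adjusted p = 0.00387 and 0.0350), and NCW2, listed as YLR194C, fell by 0.85 ± 0.29 (adjusted p = 0.0491). Without 0h A the change of PIR3 was 0.80 and not called (adjusted p = 0.0967), and each fit without a 4h array also lost it (adjusted p of 0.0835 or more). That of NCW2 ended in 8 fits that left out 1 array, with adjusted p up to 0.155. From 4 to 8 h, 8 of the 12 fell (66.7%, against 33.9% of all tested genes) and 0 rose (median -1.61), with PIR3 at -3.62 ± 0.44 and NCW2 at -3.46 ± 0.29. NCW2 exceeded the background on 1 of 3 arrays by 8h. After 8h, 1 of the 12 was called, against 1.02% of all tested genes higher and 2.83% lower. This was CIS3, which fell by 1.21 ± 0.24 (adjusted p = 0.0109), not called with median centring or without 30h B (adjusted p = 0.0894 and 0.0528).

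Of 11 enzymes that remodel wall glucan and chitin, limma called 0 at 4h against 0h, against 11.7% of all tested genes in each direction. An unadjusted p under 0.05 was seen for 2, and 2 were lower without 0h A. In the step to 8h, 6 fell (54.5%, against 33.9% of all tested genes) and 1 rose (9.09%, against 30.8%), with a median of -1.16. SCW4, for a glucanase-like protein, fell by 3.39 ± 0.33, the glucan transferase gene GAS5 fell by 2.80 ± 0.44, and UTR2, which links chitin to glucan, rose by 1.06 ± 0.43 (adjusted p = 0.0437, and up to 0.169 with 1 array left out). After 8h SCW4 rose by 1.38 ± 0.33 and CRH1, a relative of UTR2, fell by 0.94 ± 0.24 (adjusted p = 0.0307 and 0.0467). The share called over all tested genes was 1.02% higher and 2.83% lower. Both the SCW4 and the CRH1 call ended with median centring (adjusted p = 0.306 and 0.205) and in most fits that left out 1 of the 8h or 30h arrays (adjusted p up to 0.120 and 0.156).

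The genes that make and attach the GPI anchor mostly rose from 4 to 8 h. Of 24 tested, limma called 0 at 4h against 0h, against 11.7% of all tested genes in each direction. An unadjusted p under 0.05 was seen for 6, and without 0h A 2 were higher and 1 lower. From 4 to 8 h, 13 rose (54.2%, against 30.8% of all tested genes) and 5 fell (20.8%, against 33.9%), with a median of 1.34, against -0.12 over all tested genes and -1.40 for the mannoprotein genes. GPI2, for the first step of anchor synthesis, rose by 3.66 ± 0.24 and MCD4, which adds phosphoethanolamine to the anchor, by 3.04 ± 0.30. GPI17, for a subunit of the transamidase that attaches the anchor, fell by 1.44 ± 0.32, and GPI15 fell by 1.31 ± 0.54 (adjusted p = 0.0450), not called with median centring (-0.89) or, among other fits, without 8h C (-0.88, adjusted p = 0.201). With median centring, where 1742 of all genes were higher and 1961 lower, 15 rose and 4 fell. Without normalisation, where 610 of all genes were higher and 2843 lower, 3 were higher and 7 lower. Without normalisation the list's median lay 0.97 above that of all tested genes. Median centring shifts each array by a constant and so gives the same value by construction. After 8h 1 of the 24 was called, against 1.02% of all tested genes higher and 2.83% lower. This was GAB1, at 1.18 ± 0.30 (adjusted p = 0.0456), but not with median centring (adjusted p = 0.185) or without 0h B, 8h A, 8h B or any 1 of the 4h or 30h arrays (adjusted p up to 0.155).

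Genes that supply and add mannose showed no common direction. Of 26 tested, 4 rose (15.4%, against 11.7% of all tested genes) and 1 fell (3.85%, against 11.7%) at 4h against 0h (median 0.03, and 1 higher and 0 lower without 4h A). Among them were PMI40, for the isomerase that makes mannose phosphate, at 1.71 ± 0.26 and PSA1, which makes GDP-mannose, at 1.30 ± 0.34, or 0.76 without 0h A. The PSA1 call ended without 4h A or 4h B (adjusted p = 0.0562 and 0.0512). MNN11, of a Golgi mannosyltransferase complex, fell by 0.78 ± 0.21, a call that ended without any 1 of the 4h arrays (adjusted p up to 0.0782). From 4 to 8 h, 5 rose (19.2%, against 30.8% of all tested genes) and 9 fell (34.6%, against 33.9%), with a median of -0.30. The protein mannosyltransferase gene PMT3 rose by 2.40 ± 0.22, and VRG4, for the Golgi GDP-mannose carrier, rose by 1.53 ± 0.27 but stood at 0.45 with median centring (adjusted p = 0.247). MNN2 and MNN5, which start mannan side branches, were at -3.84 ± 0.56 and -2.32 ± 0.29, both lower. After 8h limma called 0 of 26, where it called 1.02% of all tested genes higher and 2.83% lower. An unadjusted p under 0.05 was seen for 4, and without 0h A 3 were higher and 2 lower.

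**Figure D4:**
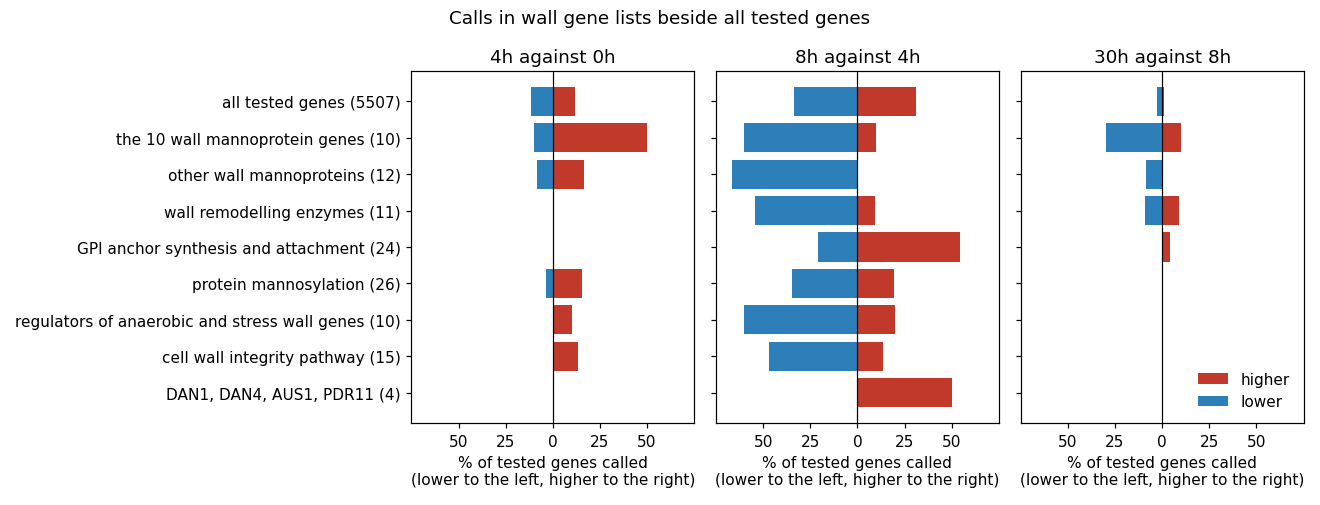
Share of tested genes (x axis, %) called higher (red, to the right) and lower (blue, to the left) in each wall-related list and over all tested genes (rows, number tested in brackets), in the 3 comparisons of successive times. At 8h against 4h the mannoprotein lists lie mostly to the left and GPI anchor synthesis mostly to the right, and without normalisation 3 anchor genes were higher and 7 lower, with a median still 0.97 above that of all tested genes.

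In the wall integrity pathway, which senses wall stress and signals through a kinase cascade, 2 of 15 tested genes rose (13.3%, against 11.7% of all tested genes) and 0 fell at 4h against 0h (median 0.31). The sensor gene WSC2 rose by 1.30 ± 0.28 (adjusted p = 0.00463) and the kinase gene MKK1 by 0.97 ± 0.31 (adjusted p = 0.0399). Without 0h A the change of MKK1 was 0.63 and not called (adjusted p = 0.0915), nor was it without any 1 of the 4h arrays (adjusted p up to 0.115). From 4 to 8 h, 2 rose (13.3%, against 30.8% of all tested genes) and 7 fell (46.7%, against 33.9%), with a median of -0.83. SWI6, for a transcription cofactor, rose by 1.51 ± 0.41 and the kinase gene MKK2 rose by 1.35 ± 0.28. RHO1, for the GTPase at the head of the pathway, fell by 3.29 ± 0.76, and SLT2, for its last kinase, fell by 2.14 ± 0.30. After 8h limma called 0 of 15, where it called 1.02% of all tested genes higher and 2.83% lower. An unadjusted p under 0.05 was seen for 1, and without 0h A 1 was lower.

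Among 10 regulators linked in S. cerevisiae to anaerobic or stress control of wall genes, TUP1, for a corepressor, rose at 4h against 0h (1.10 ± 0.34, adjusted p = 0.0323, and 0.56 without 0h A), and 0 fell. Of all tested genes 11.7% rose and 11.7% fell there. The call of TUP1 ended without any 1 of the 4h arrays (adjusted p of 0.0817 or more). At 8h against 4h, 2 of the 10 were called higher and 6 lower, against 30.8% and 33.9% of all tested genes. By 8h ROX1, the repressor of hypoxic genes, rose by 2.26 ± 0.27 and CYC8, the partner of TUP1, by 1.26 ± 0.24. HAP1, the haem-dependent activator, did not exceed the background on any 8h array, and the 8h level was at least 6.92-fold lower than at 4h (adjusted p = 5.41e-05). Lower too were MOT3 at -1.61 ± 0.44, SUT1 at -1.36 ± 0.31, MSN4 at -1.28 ± 0.32, ECM22 at -0.99 ± 0.39 and MSN2 at -0.63 ± 0.25 (adjusted p = 0.00146 to 0.0395). The calls of ECM22 and MSN2 ended without any 1 of the 4h arrays, among other fits (adjusted p up to 0.145 and 0.104). UPC2, the activator of TIR and DAN genes, was at -1.04 ± 0.93 (adjusted p = 0.339). After 8h limma called 0 of 10 regulators, where it called 1.02% of all tested genes higher and 2.83% lower. An unadjusted p under 0.05 was seen for 1 regulator, and without 0h A 1 was higher. Of 4 genes with anaerobic induction that are not members, 2 were called higher at 8h against 4h, against 30.8% of all tested genes. These were PDR11 and AUS1, for sterol importers, which rose by 2.80 ± 0.25 and 2.23 ± 0.25. The wall protein gene DAN1 was at -0.01 ± 0.40, and it was called with median centring (1.34, adjusted p = 0.0107). DAN4, for another wall protein, did not exceed the background on any 8h array and was not called (adjusted p = 0.467), and no fold is given. Without normalisation, where the median gene shifts down, the 4h calls upward of CIS3, PIR3, PMI40, PSA1, WSC2, MKK1 and TUP1 ended, as did the 8h calls upward of UTR2, MCD4, PMT3, VRG4, SWI6, MKK2, ROX1, CYC8 and AUS1.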

How the data were processed

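Total RNA was labelled with biotin and hybridised to 1 single-colour Affymetrix array per sample, per the labels' protocols. The authors deposited a linear intensity for each of 10928 probe sets on each array. Per the submitters' processing notes GCOS 5.0 and MAS5 were used, and scaling parameters are not given in the sources used here. Genes were named through the platform annotation, which can be old: 5685 probe sets carried 1 S. cerevisiae gene, 4916 carried 1 S. pombe gene, 46 carried several genes, 213 were controls and 68 had no gene named.

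Signals were floored at 1 and log2-transformed. Genes whose mean over the 12 arrays exceeded the 95th percentile of S. pombe means (a signal of 7.86) were tested, and 128 dim ones, FIT2 among them, were left out. After quantile normalisation, limma 3.58.1 in R 4.3.3 fitted a mean for each time (8 residual degrees of freedom, moderated variances with a trend), with two-sided p-values adjusted by Benjamini-Hochberg over 5507 genes. A gene below the S. pombe threshold on all 3 arrays of a time is given as an "at least" fold. The steps were tested on simulated data. The number of arrays limits the precision.

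The members, the 7 companion lists and the tests were chosen with earlier results of these data known. All members were named; from each companion list the 2 largest called rises and falls per comparison were named, with the regulators and the 4 anaerobic genes whole, and the 2 genes most alike by Pearson's r per member. Alternatives were no normalisation, median centring, pseudocounts of 16 and 100, no filter, the brightest probe set, the 2 times alone, a replicate block, array weights and each array left out. No 2 arrays held identical values. Sequences were not used here.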

Additional observations from a re-analysis of the deposited data

How the results depend on the processing

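Of 1050 values for the 10 members in 5 comparisons under 21 alternatives, 970 kept their direction and their side of the threshold, 41 lost a call, 18 gained one and 21 changed sign. Without normalisation the sign changed at 4h against 0h for TIR2 (-0.59), CWP1 (-1.11), CWP2 (-0.71) and SED1 (-0.13), at 30h against 8h for TIR2 (0.38), CWP1 (0.068), SED1 (0.060) and SRL1 (0.36), at 8h against 0h for TIP1 (-2.12), TIR1 (-2.12), TIR3 (-1.49) and CWP2 (-3.60), and at 30h against 0h for TIR3 (-0.84). The unnormalised median gene itself stood at -1.17, -2.48 and -1.86 at 4h, 8h and 30h relative to 0h, and at 0.58 between 8h and 30h, and of the changes of sign just listed only that of CWP2 at 8h against 0h put the gene on the other side of the median gene. Median centring turned CWP2 at 8h against 0h (-1.26). CWP1 at 4h against 0h was -0.045 with a pseudocount of 100, -0.52 with array weights and -0.63 to 0.46 with 1 array left out. TIR4 at 30h against 8h was -0.089 with array weights and -0.16 to 0.25 with 1 array left out, where TIR3 was -0.25 to 0.39. Without normalisation 2676 genes were called at 4h against 0h, 46 higher and 2630 lower, with 3 members higher. Under the same setting 0 members were higher at 8h against 4h, where 610 of all 5507 tested genes were. At 30h against 8h 5 genes and 0 members were called. At 8h against 0h 0 members were higher and 8 lower, where 230 of all tested genes were higher and 4305 lower. At 30h against 0h 0 members were higher, where 360 of all tested genes were. Median centring called 49 genes at 30h against 8h, 6 higher and 43 lower, with 0 members higher and 1 lower. Array weights, whose estimation stopped before convergence, called 2724 genes at 4h against 0h, 1467 of them higher, and 8 members higher. Leaving out 1 array gave 673 to 1545 calls at 4h against 0h, the fewest without 4h B and the most without 0h A, with 0 to 1 members lower. At 30h against 8h it gave 126 to 582 calls, 126 without 30h B, 135, 135 and 131 without 4h A, 4h B and 4h C, and 582 without 0h A. For samples with the same letter, r of their deviations from the time means was -0.22 to 0.24 over 18 pairs, with 2 above 0.1. For samples with other letters at other times it was -0.31 to 0.27 over 36 pairs, with 3 above 0.1. With 3 arrays per time, whose deviations sum to 0, this check cannot settle whether the letters pair the samples. With the replicate block, 1250 genes were called at 4h against 0h and 192 genes between 8h and 30h, and TIR3 was called at 4h and at 30h against 0h (adjusted p = 0.0484 and 0.0452). The cause of these differences was not tested.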

Other observations

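Against 0h, the anchor genes and the other wall mannoprotein genes had different counts of calls at both late times, a difference that was not tested. Of 24 tested genes of GPI anchor synthesis and attachment, 13 were higher and 4 lower at 8h against 0h. Of all tested genes, 29.7% were higher and 32.9% lower there. At 30h against 0h, 15 anchor genes were higher and 4 lower, where 31.2% of all tested genes were higher and 33.3% lower. Of 12 tested genes for other wall mannoproteins, 0 were higher and 7 lower at 8h against 0h, and 0 and 10 at 30h against 0h (medians of -0.88 and -1.38). Without normalisation 1 anchor gene was higher and 13 lower at 8h against 0h, where 230 of all 5507 tested genes were higher and 4305 lower, and 2 were higher and 12 lower at 30h, where 360 of all genes were higher and 3643 lower. Their median lay above that of all tested genes there, by 0.61 at 8h and 0.86 at 30h, and with quantile normalisation by 1.06 and 1.19. These comparisons share the 0h arrays with each other and with 4h against 0h, and they span the change in brightness between early and late arrays.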
